A study of Homo sapiens with 12 samples.

Results

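Respiratory complex I genes were followed in HEK293, a human embryonic kidney cell line, and in the extracellular vesicles (EVs) that these cells release. The members are the protein-coding genes whose symbol starts with NDUF, 48 of the 57773 gene IDs in the table. They comprise 7 core subunits, 9 accessory subunits of the matrix arm, 9 of the proximal and 11 of the distal membrane arm, 8 assembly factors named NDUFAF, NDUFAB1, NDUFA4, NDUFA4L2 and the read-through gene NDUFC2-KCTD14. Of these, 47 had a value above 0 in at least 1 library, and NDUFC2-KCTD14, whose exons are all shared with NDUFC2 or KCTD14, was listed at 0 in all 12. Symbols were checked against GENCODE release 29, and another 66 genes with NDUF symbols (62 pseudogenes and 4 other transcripts) were not members.

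The series sequenced long RNA of cells and of their EVs after normoxia or hypoxia, to compare what the EVs carry with what the cells hold. Each of the 4 groups had 3 libraries: cells and EVs after normoxia, and cells and EVs after hypoxia. All 4 groups carried the 4EC1 vectors, a set named for eGFP, EIF4E, YTHDF1, GBP1 and CD9, delivered by lipofection for 48 h, and no untransfected cells were analysed here. Hypoxia groups spent 24 h in a hypoxia chamber, at an oxygen level not given in the sources used here. The cells grew in medium with 10% fetal bovine serum. The labels do not state whether the 3 libraries of a group came from separate cultures. The p-values therefore describe the spread between these libraries alone, which may be technical. In bulk RNA, fewer cells and less RNA per cell cannot be told apart.

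Complex I is the largest enzyme of the respiratory chain. It oxidises NADH in a matrix arm, passes electrons along iron-sulfur clusters to ubiquinone, and pumps protons through a membrane arm. Its subunits come from nuclear and mitochondrial genes, and assembly factors that do not stay in the finished enzyme join them in modules. In hypoxia, the hypoxia-inducible factors (HIF) are known to raise NDUFA4L2 and the microRNA miR-210, while nuclear respiratory factor 1 (NRF1) and YY1 are known activators of nuclear respiratory genes.

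Short sequences are shown first because later counts refer to them. RefSeq promoters (GRCh38.p14, 250 bases before and 50 after the start) matched 40 of 48 members. The NRF1 letters GCATGCGC, searched on both strands, were in 7 of 40 promoters (17.5%), against 4.26% of 15842 protein-coding promoters. The YY1 letters AAGATGGC were in 6 of 40 (15%), against 3.91%. The HIF core ACGTG was in 11 of 40 (27.5%), against 23.7%. The 7 NRF1 matches are printed with 11 bases on each side, 5′ to 3′ on the gene's strand, with the match in capitals. A match is a description of letters, not evidence of binding.
NDUFA6, chr22:42090920-42090949, minus strand: tctgtagatgaGCATGCGCagcacccaccg
NDUFA8, chr9:122159763-122159792, minus strand: ttgccggatgcGCATGCGCaggcgccgtgt
NDUFAF4, chr6:96897867-96897896, minus strand: ccctcacttgtGCGCATGCtccgggtgtcc
NDUFAF5, chr20:13785015-13785044, plus strand: gccgcgctggcGCATGCGCacaaaaagcgc
NDUFB4, chr3:120596168-120596197, plus strand: gagcacttcgcGCATGCGCatatcaccgag
NDUFS6, chr5:1801350-1801379, plus strand: ccagaagccgtGCGCATGCgttagcgctaa
NDUFS7, chr19:1383823-1383852, plus strand: ttccggtttccGCATGCGCtccgagccgct

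The YY1 matches of NDUFA6, NDUFS4 and NDUFS7 show another layout. Over the 6 members with these letters (NDUFA3, NDUFA6, NDUFA7, NDUFA9, NDUFS4 and NDUFS7), the match began between 11 and 26 bases after the start of transcription and lay on the gene's own strand. The NRF1 matches began between -166 and 7. NDUFA6 and NDUFS7 held both. The YY1 letters contain ATG, and whether their matches cover the start of the coding sequence was not tested.
NDUFA6, chr22:42090729-42090758, minus strand: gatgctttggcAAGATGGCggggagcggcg
NDUFS4, chr5:53560649-53560678, plus strand: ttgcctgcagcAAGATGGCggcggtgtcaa
NDUFS7, chr19:1383913-1383942, plus strand: aggccgaggccAAGATGGCggtgctgtcag

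NDUFA4 is a known target of miR-210-3p, so the RefSeq mature miRNA is printed with its seed (bases 2 to 8) in capitals, beside the stretch of the NDUFA4 transcript (GENCODE release 29, gene at chr7:10931951-10940256, minus strand) that pairs with seed bases 2 to 7. The match starts at base 502 of 2130, past the last coding base at 442, so it lies in the 3′ UTR. The letters CGCACA were in the main transcript of 8 of 48 members (16.7%), against 23.8% of 19659 protein-coding genes.
miR-210-3p: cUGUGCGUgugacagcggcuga
NDUFA4 transcript: tcttccagaagccacatcCGCACAattttc

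Library depth was 18059381 to 23400813 reads in cells, 5266244 to 7001767 in normoxia EVs and 3259453 to 6129782 in hypoxia EVs. All 47 expressed members had at least 10 reads in each cell library, and 41 to 47 of them did in each EV library. The 7 mitochondrially encoded core subunits (MT-ND1 to MT-ND6 and MT-ND4L) were listed at 0 in all 12 libraries with the other mitochondrial IDs, so only nuclear genes could be compared. All 7 HEK293 markers matched in the table were present in every group. Blood markers (8 genes, summed) lay between 34.0 and 42.3 units in cells, 66.6 and 186 in normoxia EVs and 267 and 321 in hypoxia EVs. Liver and plasma markers (6 genes) lay between 33.0 and 67.6, 107 and 299, and 502 and 625. The deposited unit is a normalised read count, called a value below.

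Per length, the accessory subunits spanned the widest range. Levels are given as RPKM, reads scaled to the length of the main transcript and to the library's total. NDUFS5 was highest in normoxia cells at 341 ± 18.8 (SD, n = 3), followed by NDUFB10 at 304 ± 8.88. In hypoxia cells these 2 were at 304 ± 8.76 and 315 ± 22.8, within the spread of NDUFB10. NDUFB7 followed at 143 ± 11.9. NDUFAB1 (116 ± 3.03), NDUFB9 (113) and the core subunit NDUFS8 (110 ± 2.62) came next, and NDUFB9 differed from both neighbours by less than its own SD. The median RPKM in normoxia cells was 44.3 for core subunits, 32.7 for matrix arm, 31.2 for proximal and 37.2 for distal membrane arm accessory subunits, and 10.2 for the NDUFAF factors.

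The bottom of this order held several members whose exons other annotated genes share. In NDUFV2 (4.04 RPKM in normoxia cells), 82.9% of the main transcript's bases lay in exons of another gene on the same strand. The share was 75.9% in NDUFA7 (1.87 RPKM), 71.7% in NDUFB8 (6.58 RPKM), 66.98% in NDUFA11 (25.3 RPKM), 44.1% in NDUFA13 (2.20 RPKM), 17.1% in NDUFC2 (2.55 RPKM), 16.7% in NDUFV1 (44.3 RPKM) and 11.8% in NDUFA9 (0.909 RPKM). The handling of reads in shared exons was not given in the sources used here, so these levels are uncertain, and the part of sharing in the order was not tested. NDUFA4L2 (1.81 RPKM) was as low with no shared base. The counts of NDUFA9 were divided by a main transcript of 8363 bases, and the part of this length in its place was not tested. Levels in EVs followed levels in cells across the 47 members (Spearman rho 0.84 on log2 RPKM, a description, since genes of the same libraries are not independent).

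**Figure D1:**
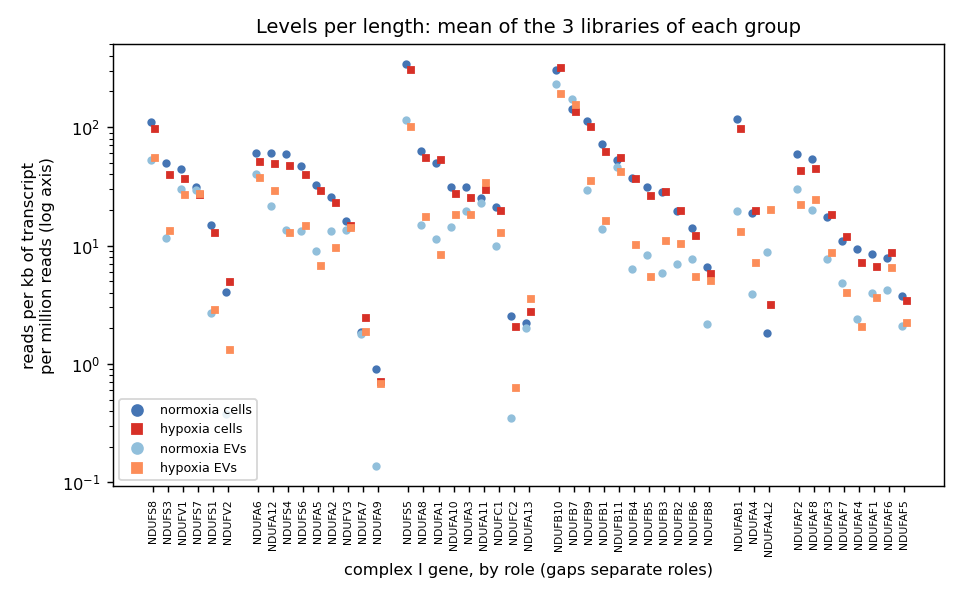
Mean RPKM (vertical log axis) of the complex I genes reported here (horizontal axis, grouped by role) in the 4 groups, circles for normoxia and squares for hypoxia. NDUFB10 and NDUFS5 lie above 100 in all 4 groups, and NDUFA9, NDUFA4L2, NDUFA7 and NDUFA13 lie at the bottom in normoxia cells.

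In hypoxia cells, the median log2 fold change of each role lay below 0 in the deposited values. With limma on log2(value + 1) over all 17260 genes tested and Benjamini-Hochberg adjustment at 0.05, 26 of 47 members fell and 0 rose (limma; 1 was higher at an unadjusted p under 0.05, and 0 were higher by edgeR or DESeq2). Over all genes, 22.4% fell and 8.01% rose. Among abundant protein-coding genes, those whose mean value reached 100 or more, 36.2% fell and 7.65% rose, against 26 of the 40 abundant members (65%) that fell. The median member changed by -0.30 on the log2 scale, against -0.07 over all genes tested and -0.14 over abundant protein-coding genes, and 41 of 47 members lay below 0. The 3 libraries of a group did not overlap, on the lower side, for 28 members and on the higher side for 0 (27.6% and 12.7% over all genes).

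The scale of this fall depends on the scaling. Equal totals moved the all-gene median in cells from -0.07 to 0.06 and that in EVs from 0.60 to 1.13. With it, 15 members fell in cells and the median member lay at -0.18, while 11.8% of all genes fell and 13.3% rose. With equal totals without the 10 highest genes, 10 members fell and their median was -0.15, while 10.2% of all genes fell and 15.3% rose. The 10 members called lower under each of 6 scalings and tools (the deposited scaling, TMM, both equal-total scalings, edgeR and DESeq2) were NDUFA6, NDUFA10, NDUFA12, NDUFAB1, NDUFAF2, NDUFAF4, NDUFS1, NDUFS3, NDUFS4 and NDUFV1. NDUFA10 of the proximal part was the only one of them grouped here with the membrane arm, as NDUFAB1 was grouped apart. A fit with the EV libraries included, which pools their wider spread, called 0 of 47 lower and 0.103% of all genes lower, with the members' median still at -0.30.

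**Figure D2:**
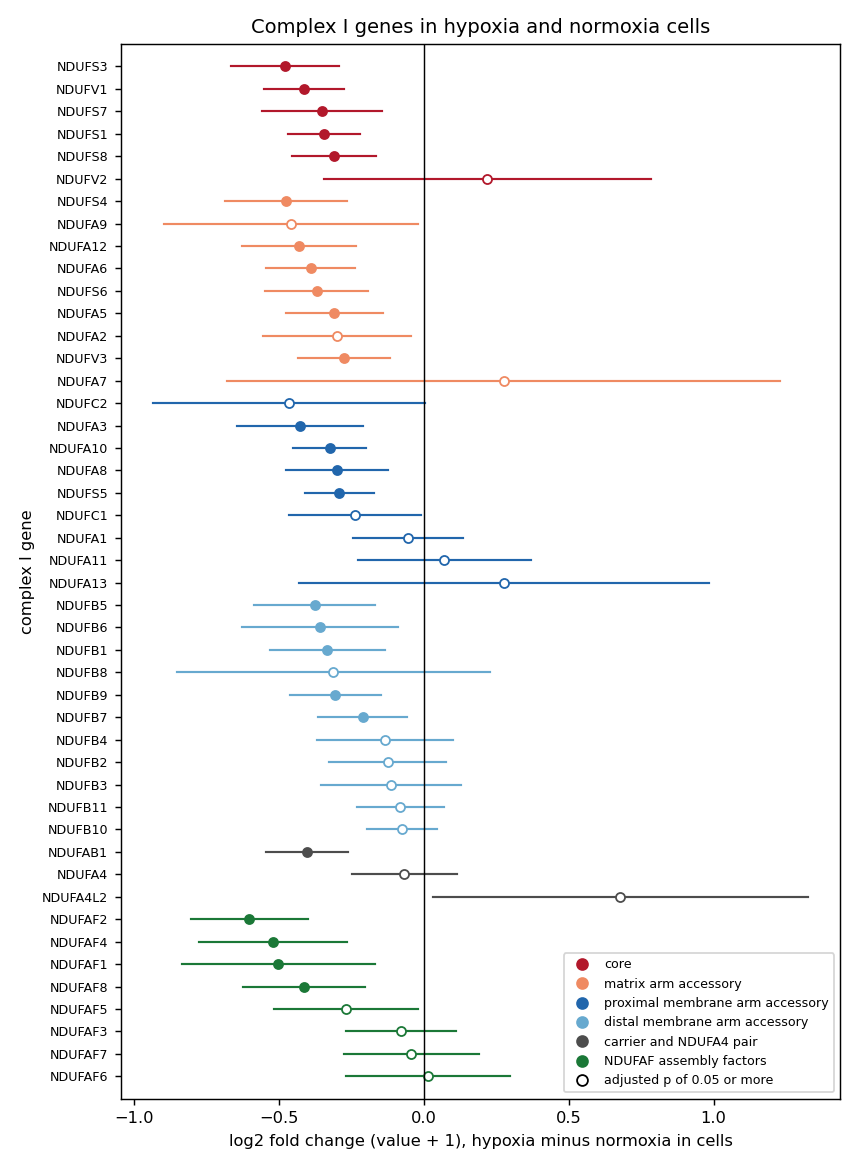
Log2 fold change of hypoxia minus normoxia in cells (horizontal axis; bars are 95% intervals) for the complex I genes reported here (vertical axis), coloured by role, filled where the adjusted limma p is under 0.05. All filled points lie left of 0, and all 11 distal membrane arm subunits have estimates below 0.

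Of the 7 core subunits, 6 (85.7%) fell in hypoxia cells, against 22.4% of all genes and 36.2% of abundant protein-coding genes. NDUFV1, which binds flavin and takes electrons from NADH, had values of 1236, 1206 and 1196 in normoxia and 845, 954 and 937 in hypoxia. The groups did not overlap, and the log2 fold change was -0.41 ± 0.07 (SE, limma adjusted p = 3.1e-06). NDUFS1, which carries iron-sulfur clusters, was at 1923, 1859 and 1914 against 1587, 1385 and 1524, a change of -0.34 ± 0.06 (limma adjusted p = 1.51e-05). NDUFS3, a subunit of the module that joins the arms, was at 454, 532 and 581 against 386, 379 and 353 (-0.48 ± 0.09, limma adjusted p = 4.56e-05). NDUFS7 and NDUFS8, which lie on the path to ubiquinone, changed by -0.35 and -0.31. NDUFV2, another iron-sulfur subunit, changed by 0.22 (95% interval -0.34 to 0.78, limma adjusted p = 0.624), with values of 22.6 to 53.4 in the 6 cell libraries and most of its exon bases shared, as given above.

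In the matrix arm, 6 of 9 accessory subunits (66.7%) fell, with a median of -0.37, against 22.4% of all genes that fell. NDUFS4, a late-joining subunit whose loss causes Leigh syndrome, was at 414, 462 and 418 in normoxia and 387, 302 and 255 in hypoxia. It fell by 0.47 with an SE of 0.11 (limma adjusted p = 0.000344), and the libraries of the groups were apart. NDUFA6 fell by 0.39 and NDUFA12 by 0.43, both with groups that did not overlap. NDUFA2, NDUFA7 and NDUFA9 did not pass.

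Fewer of the membrane arm subunits passed, 4 of 9 in the proximal part and 5 of 11 in the distal part (medians -0.29 and -0.21). These shares, 44.4% and 45.5%, stand against 22.4% of all genes and 36.2% of abundant protein-coding genes that fell. NDUFA13 and NDUFC2 of the proximal part and NDUFB8 of the distal part lay below the mean set for abundant genes. The share of abundant genes is therefore not a like-for-like background for these parts. NDUFA3 of the proximal part was at 301, 309 and 370 in normoxia and 236, 238 and 252 in hypoxia (-0.43 ± 0.11, limma adjusted p = 0.0019). NDUFB10 and NDUFB11, among the more abundant distal subunits, changed by -0.08 each (95% intervals -0.20 to 0.04 and -0.23 to 0.07). NDUFB10 values were 2342, 2225 and 2398 against 2001, 2369 and 2250, so its groups overlapped. The difference between arms was not tested. Distal subunits held 25.7% ± 0.442 (SD, n = 3) of the members' reads after normoxia and 27.7% ± 0.856 after hypoxia, and core subunits 23.2% ± 0.437 and 22.1% ± 0.108.

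NDUFAB1, the mitochondrial acyl carrier protein, which also serves lipoic acid and iron-sulfur cluster synthesis, was at 1121, 1071 and 1163 in normoxia cells and 910, 810 and 820 in hypoxia cells. It fell by 0.40 with an SE of 0.07 (limma adjusted p = 8.4e-06).

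Among assembly factors, 4 of the 8 NDUFAF genes (50%) fell in hypoxia cells, against 22.4% of all genes and 36.2% of abundant protein-coding genes. NDUFAF2, a paralogue of NDUFA12 that acts late in assembly, had the lowest log2 fold change of the 47 members. Its values were 408, 489 and 489 in normoxia and 349, 298 and 268 in hypoxia, with no overlap (-0.60 ± 0.10, limma adjusted p = 3.1e-06). NDUFAF4, which acts early on the ubiquinone module, was at 276, 228 and 228 against 189, 149 and 172 (-0.52 ± 0.13, limma adjusted p = 0.00114). NDUFAF1, which builds the membrane arm with ACAD9 and ECSIT, changed by -0.50, and NDUFAF8, the partner of NDUFAF5, by -0.41.

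The other 4 did not pass. NDUFAF5, a hydroxylase of NDUFS7, was at -0.27, NDUFAF3, the partner of NDUFAF4, at -0.08, NDUFAF7, a methyltransferase, at -0.04, and NDUFAF6 at 0.02. Of 11 assembly factors outside the NDUF names, 5 fell and 0 rose (limma; 0 were higher at an unadjusted p under 0.05). They were NUBPL, which delivers iron-sulfur clusters, at -0.75, TMEM126B at -0.65, DMAC1 at -0.55, COA1 at -0.26 and TIMMDC1 at -0.22. TMEM126B is of the same membrane-arm complex as NDUFAF1. The share that fell, 45.5%, stands against 22.4% of all genes and is near the 36.2% of abundant protein-coding genes.

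NDUFA4 and its paralogue NDUFA4L2 did not follow the core. NDUFA4, now regarded as a subunit of complex IV, was at 408, 455 and 434 in normoxia cells and 415, 409 and 413 in hypoxia cells. These groups overlapped, with a change of -0.07 (95% interval -0.25 to 0.12, limma adjusted p = 0.648). NDUFA4L2, known as a HIF target that lowers complex I activity, was at 31.2, 17.6 and 20.7 against 30.3, 39.1 and 41.4. Its change of 0.68 ± 0.33 did not pass (limma adjusted p = 0.116), and 1 hypoxia library lay within the normoxia range. NDUFA4L2 stayed at 3.13 RPKM in hypoxia cells, against 19.5 for NDUFA4.

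**Figure D3:**
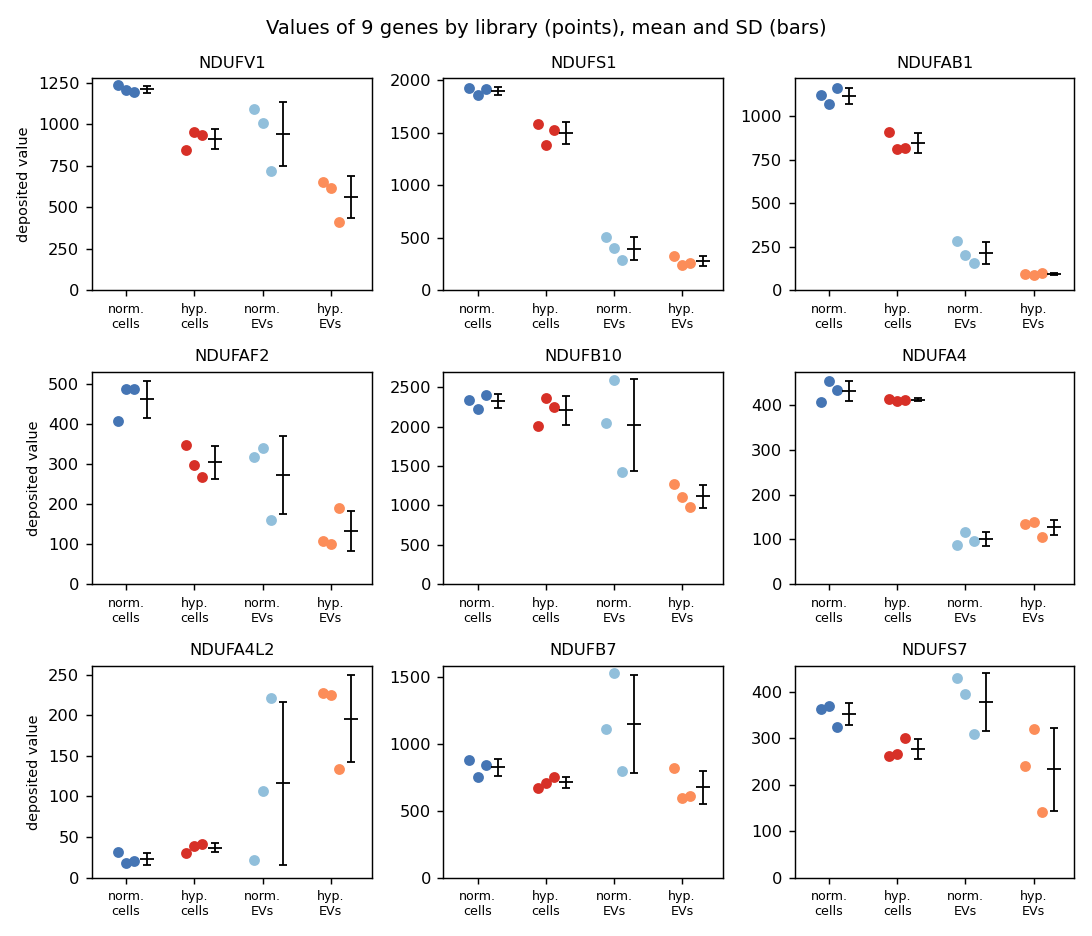
Deposited values (vertical axes, from 0) of 9 genes in each library by group (points), with mean and SD of the 3 libraries beside them. NDUFV1, NDUFS1, NDUFAB1 and NDUFAF2 are lower in all hypoxia cell libraries than in normoxia cells, and NDUFA4 overlaps between the cell groups. The EV means of NDUFA4L2 lie above its cell means, while the first normoxia EV library lies within the cell range.

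Genes linked to the respiratory chain or to mitochondria in hypoxia were examined as a list. Most of them are not regulators of complex I genes. MIR210HG, the host transcript of miR-210, rose from a mean of 17.5 to 135 in cells (2.91 ± 0.26, limma adjusted p = 1.19e-14). PDK1, a kinase that inhibits pyruvate dehydrogenase, rose by 1.71, and BNIP3, a mitophagy receptor, by 1.67. LONP1, a matrix protease, rose by 0.25. ISCU, an iron-sulfur scaffold and also a known miR-210 target, fell by 0.47, HIGD1A by 0.45 and COX4I1 by 0.22. Thus 4 of the 8 genes of this list that could be tested rose and 3 fell. Over all genes 8.01% rose and 22.4% fell.

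Of 9 transcriptional regulators of nuclear respiratory genes, 7 fell in cells (77.8%), against 22.4% of all genes and 36.2% of abundant protein-coding genes. The largest fall was that of the coactivator PPARGC1B (-0.92 ± 0.07, limma adjusted p = 3.35e-16), with ESRRA at -0.56, NRF1 at -0.37 and PPRC1 at -0.34. YY1 was at -0.12 (limma adjusted p = 0.137). Of the 7 members with the printed NRF1 letters, 5 fell, with a median of -0.35, against 17 of 32 tested members whose promoter lacked them (median -0.31). With the YY1 letters 4 of 6 fell, and without them 18 of 33. With the HIF core 5 of 10 fell, and without it 17 of 29.

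Complexes II to V gave a like picture in cells, where 28 of 38 nuclear genes (73.7%) fell, with a median of -0.28. Over all genes 22.4% fell, and over abundant protein-coding genes 36.2%. Among the 28 were UQCRC2 of complex III at -0.49, SDHB of complex II at -0.49 and ATP5F1C of the ATP synthase at -0.48. Complex I genes took 0.241% ± 0.00286 (SD, n = 3) of the reads of normoxia cells and 0.217% ± 0.00459 of those of hypoxia cells. The ratio of complex I to complex II to V reads was 0.563 ± 0.00769 and 0.565 ± 0.00950, a difference within the spread.

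In EVs, fewer members differed between hypoxia and normoxia. By limma over 27904 genes, 5 of 46 members tested fell (10.9%; all genes 6.62% lower and 5.68% higher) and 0 rose (1 was higher at an unadjusted p under 0.05, 0 by edgeR or DESeq2). NDUFV2 was below the mean of 10 that the fit required. Among abundant protein-coding genes 16.9% fell and 6.31% rose, against 5 of the 30 abundant members (16.7%) that fell, a share near the background. The median member was at -0.47, against 0.60 over all genes and -0.38 over abundant protein-coding genes. The groups were apart for 13 members on the lower side (14.5% of all genes) and for NDUFA9 alone on the higher side (23.4% of all genes).

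The 5 genes were NDUFB10, NDUFAB1, NDUFB11, NDUFV1 and NDUFB7. NDUFB10 was at 2043, 2596 and 1419 in normoxia EVs and 1265, 1107 and 974 in hypoxia EVs (-0.82 ± 0.23, limma adjusted p = 0.0293). NDUFAB1 was at 285, 202 and 158 against 94.8, 86.8 and 101 (-1.14 ± 0.36, limma adjusted p = 0.0415). NDUFV1 was at 1092, 1009 and 721 against 653, 618 and 414 (-0.75 ± 0.24, limma adjusted p = 0.0452). In these 3 the groups did not overlap, while normoxia replicate 3 was the lowest of its group. NDUFB11 fell by 0.72, also without overlap (759, 834 and 743 in normoxia EVs against 578, 461 and 391 in hypoxia EVs). NDUFB7 fell by 0.73 with groups that overlapped.

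These calls rest on the scaling and on single libraries. With equal totals 0 of 46 fell and the median member turned to 0.091. With equal totals 0.674% of all genes fell and 15.1% rose. With equal totals without the 10 highest genes 0 members fell as well (1.59% of all genes), with a median of -0.04. With the background density removed, 0 of all 27904 genes passed in either direction, while the members' median was further from 0, at -0.81. Without normoxia EV replicate 3, 15 members fell and 1, NDUFA4L2, rose, while 14.1% of all genes fell and 22.0% rose. Without any of the other 5 EV libraries 0 members were called, and 0.0243% to 1.02% of all genes fell. The RPKM over 6599 protein-coding genes that are near silent in cells moved with the groups. It was 0.339, 0.549 and 1.13 in normoxia EVs and 1.996, 2.01 and 2.12 in hypoxia EVs, against 0.115 to 0.201 in cells. Pseudogenes held 0.970% ± 0.707 (SD, n = 3) of NDUF reads in EVs after normoxia and 3.74% ± 1.17 after hypoxia. The part of these, and of the blood and liver markers given above, in the EV results was not tested.

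**Figure D4:**
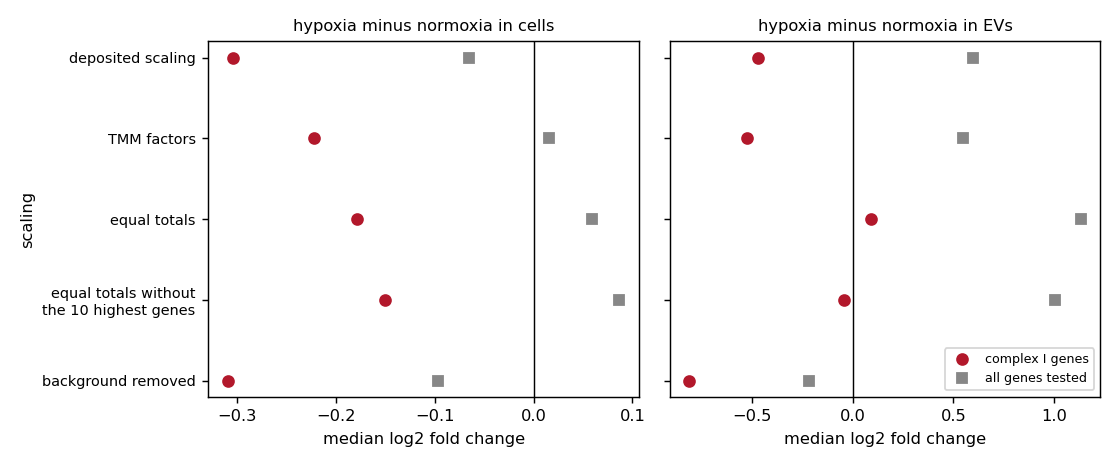
Median log2 fold change of hypoxia minus normoxia (horizontal axes) over complex I genes (circles) and over all genes tested (squares) under 5 scalings (vertical axis), in cells (left) and EVs (right). In cells the members' median stays below 0 under all 5; in EVs it moves from -0.47 to 0.091 with equal totals.

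NDUFAB1, NDUFB7 and NDUFV1 fell in both cells and EVs, which is 3 of 26 cell calls and 3 of 5 EV calls. Of all 47 members tested in cells 55.3% fell, so 3 of 5 is near that share. The same overlap over all genes was not counted. The responses themselves, EV minus cell, were compared over all 12 libraries, where 0 of 47 members differed by limma (7 were lower and 1 higher at an unadjusted p under 0.05). Over all genes 1.87% were lower and 0.443% higher, and over abundant protein-coding genes 3.91% and 0.497%. By edgeR 3 were lower (NDUFA1, NDUFAB1 and NDUFB10), against 6.12% of all genes, and by DESeq2 4 were lower and 1, NDUFA9, was higher, against 6.93% and 2.13% of all genes. These shares of the 47 members are near those of all genes. The smallest adjusted limma p was that of NDUFA1, a small membrane subunit, at 0.0824 (-0.97 ± 0.30). NDUFA1 was at 126, 108 and 89.9 in normoxia EVs and 54.8, 48.7 and 53.0 in hypoxia EVs, but at 416, 403 and 422 against 438, 356 and 406 in cells. Its exons share 44.5% of their bases with RNF113A on the opposite strand. Without normoxia EV replicate 3, 9 members differed on the lower side and NDUFA9 on the higher side, while 13.3% of all genes were lower and 9.57% higher.

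Read against the cells, complex I RNA took a smaller share of the EV libraries. The values are relative to each library, so they give no amount per cell or per EV. With the mean of both EV groups minus that of both cell groups, 40 of 47 members were lower in EVs and 1, NDUFA4L2, was higher (limma, 24171 genes). Over all genes 31.8% were lower and 43.1% higher, and over abundant protein-coding genes 60.0% were lower and 18.9% higher, against 35 of the 39 abundant members (89.7%) that were lower. The groups did not overlap for 28 members on the lower side and 0 on the higher side (21.3% and 19.8% over all genes). The median member lay at -1.20, against 0.32 over all genes and -0.63 over abundant protein-coding genes. With equal totals without the 10 highest genes 33 were lower and 3 higher (NDUFA4L2, NDUFB7 and NDUFV3), against 24.4% and 52.4% of all genes. The 33 were called under all 6 scalings and tools. Members took 0.111% ± 0.0115 (SD, n = 3) of the reads of normoxia EVs and 0.113% ± 0.00827 of those of hypoxia EVs, below every cell library.

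By role, 6 of 7 core, 7 of 9 matrix arm, 7 of 9 proximal and 10 of 11 distal membrane arm subunits and 8 of 8 NDUFAF factors were lower in EVs. NDUFAB1 had means of 982 in cells and 155 in EVs (-2.78 ± 0.14, limma adjusted p = 1.98e-12). NDUFS1 was at 1699 in cells and 337 in EVs, where its 6 libraries ranged from 241 to 504 (-2.37 ± 0.13, limma adjusted p = 6.73e-12). NDUFA1 changed by -2.43, NDUFB4 by -2.24, NDUFB1 by -2.25, NDUFB5 by -2.12, NDUFA5 by -2.04, NDUFS4 by -2.09 and NDUFA8 by -1.93. NDUFV2 was at -2.84 ± 0.56 with 0 to 14 reads per EV library, so its size is poorly set. Among other core subunits, NDUFS3 changed by -1.96, NDUFS8 by -1.0 and NDUFV1 by -0.56.

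The NDUFAF factors ranged from -1.93 (NDUFAF4) to -0.76 (NDUFAF6), with NDUFAF7 at -1.42, NDUFAF1 and NDUFAF8 at -1.20, NDUFAF3 at -1.19, NDUFAF2 at -1.04 and NDUFAF5 at -0.87. Outside the NDUF names, 9 of 11 assembly factors (81.8%) were lower in EVs. Over all genes 31.8% were lower, and over abundant protein-coding genes 60.0%. DMAC1 was at -2.14 and TIMMDC1 at -1.99. In hypoxia EVs against normoxia EVs, 0 of 8 NDUFAF factors passed (limma; 1 was lower at an unadjusted p under 0.05) and TIMMDC1 fell by 0.94.

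A few members were near their cell level in EVs. NDUFB7, a distal membrane arm subunit, was at 1111, 1533 and 801 in normoxia EVs and 819, 598 and 608 in hypoxia EVs, against 673 to 880 in cells (0.17, 95% interval -0.10 to 0.44). NDUFS7, a core subunit next to the ubiquinone site, was at 431, 395 and 309 and at 240, 320 and 141 in EVs, against 262 to 370 in cells (-0.11, interval -0.44 to 0.21). NDUFV3 (-0.20), NDUFA11 (-0.07), NDUFA13 (-0.10) and NDUFA7 (-0.58) also did not pass. Of NDUFS7 exon bases, 49.1% lie opposite exons of other genes, and the strand setting of the counts was not given in the sources used here.

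The main transcripts of NDUFS7, NDUFB7, NDUFA11 and NDUFA13 are rich in GC (66.5%, 65.0%, 61.97% and 61.6%), while those of NDUFA7 and NDUFV3 are at 55.7% and 48.2%. Across the 47 members, the EV minus cell difference rose with the GC content of the main transcript (Spearman rho 0.55, Pearson r 0.58), as it did over 10256 abundant protein-coding genes (rho 0.61) and over 38 genes of complexes II to V (rho 0.40). These are descriptions across genes of the same libraries. In the 15 members of lowest GC (36.3% to 45.4%) the median was -1.93 and 15 were lower. In the 15 of highest GC (54.4% to 66.5%) the median was -0.58 and 9 were lower. The part of GC content in the difference was not tested.

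**Figure D5:**
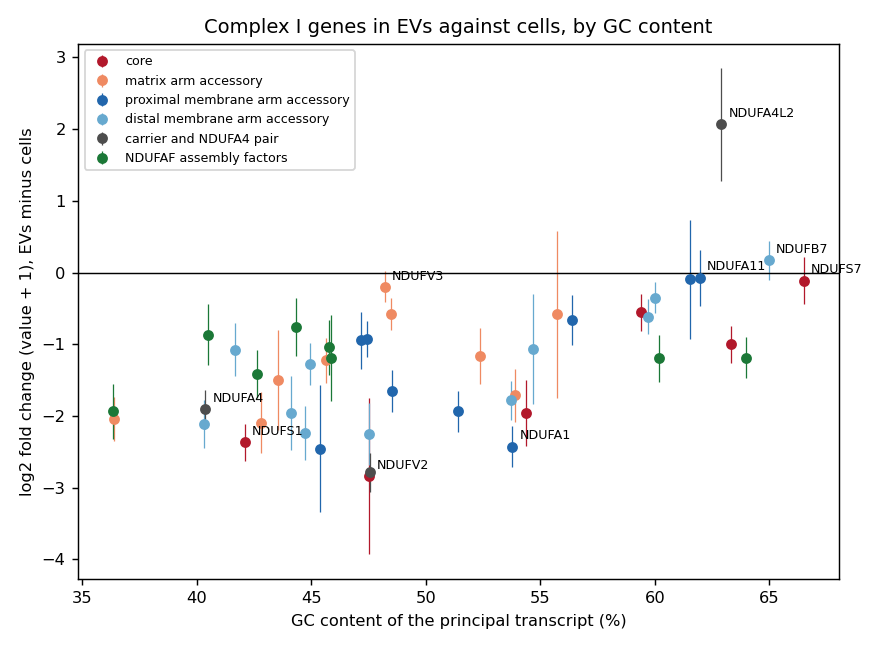
Log2 fold change of EVs minus cells (vertical axis, bars are 95% intervals) against GC content of the main transcript in percent (horizontal axis) for the complex I genes reported here, coloured by role. NDUFS7 and NDUFB7, at 66.5% and 65.0% GC, lie near 0, NDUFS1 at 42.1% lies at -2.37, and NDUFA4L2 stands above the others at 2.06.

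NDUFA4L2 was the single member higher in EVs. It was at 21.4, 106 and 221 in normoxia EVs and 227, 225 and 134 in hypoxia EVs, against 17.6 to 41.4 in cells (2.06 ± 0.40, limma adjusted p = 0.000121). The first normoxia EV library lay within the cell range and the other 5 above it. Over all genes 43.1% were higher in EVs and 31.8% lower. All 4 blood markers tested (median 2.09) and all 4 liver and plasma markers tested (median 2.80) were higher as well. The main transcript of NDUFA4L2 is at 62.9% GC. The density on near-silent genes, spread over the exons of NDUFA4L2, would give 13.4, 19.4 and 32.8 units in normoxia EVs and 45.9, 47.4 and 49.0 in hypoxia EVs. Among normoxia EVs, the library with the highest density also had the highest NDUFA4L2, while among hypoxia EVs the library with the highest density had the lowest. With that background removed NDUFA4L2 was still called higher in EVs. The removal took the same density for every gene of a library, so it cannot follow background that differs between genes. The part of background in this difference was not tested. Hypoxia minus normoxia in EVs was 1.23 ± 0.54 (limma adjusted p = 0.114), and NDUFA4L2 passed there with the replicate block and without normoxia EV replicate 3. NDUFA4 was lower in EVs, at 88.0, 117 and 95.8 and at 135, 139 and 106 (-1.91 ± 0.14, limma adjusted p = 3.49e-10).

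Complexes II to V were lower still, with 36 of 38 genes (94.7%) below the cells and a median of -1.85. Over abundant protein-coding genes 60.0% were lower. Among the 36, ATP5F1B was at -2.56 and COX7C at -2.86. In EVs the ratio of complex I to complex II to V reads was 0.881 ± 0.0445 (SD, n = 3) after normoxia and 0.918 ± 0.0434 after hypoxia. Every EV library lay above every cell library in this ratio. Distal membrane arm subunits held 34.9% ± 1.37 of member reads in EVs after normoxia and 31.6% ± 1.65 after hypoxia, above every cell library. Of the transcriptional regulators, 6 of 9 were lower in EVs (66.7%), near the 60.0% of abundant protein-coding genes. TFAM was at -1.96 and GABPA at -1.92, while YY1 was higher (0.78 ± 0.12, limma adjusted p = 1.03e-05). Replicate spread was wider in EVs, where the median coefficient of variation over 47 members was 30.2% in normoxia and 23.0% in hypoxia, against 7.62% and 6.91% in cells.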

How the data were processed

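The authors deposited 1 table with a signal per gene, read counts divided by 1 factor per library, as the values themselves show: low values were whole multiples of 1 step, and 100% came out whole within 0.01. Tools named in the submitters' processing notes are DESeq2 1.30.1 and Bowtie 0.12.2, with GRCh38 and hg38 as builds. The counter, the annotation and the strand setting were not given in the sources used here. Of 57773 IDs, 52338 matched GENCODE release 29. Groups came from the sample titles. Comparisons used limma with a trended prior (version 3.58.1, under R 4.3.3) on log2(value + 1), which understates the change of low genes, keeping genes whose mean reached 10, adjusted over all genes at 0.05. Fits were tested on simulated data. Alternatives were pseudocounts, filters, scalings, background removal, edgeR 4.0.16 and DESeq2 1.42.0 on recovered reads, a replicate block and each library left out.

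Named were core subunits, NDUFAB1, NDUFA4, NDUFA4L2, NDUFC2-KCTD14, NDUFAF genes, up to 10 called members per direction with the largest absolute log2 fold change less 1.96 SE, and up to 4 genes per other list by p. Members named outside this rule, for overlaps, GC, promoter letters or levels near those of cells, were chosen after their values were seen. Values of 1 member, which is in the fits and counts, are not reported here. Members and lists were chosen with earlier results of these data known. RPKM used the recovered reads and GENCODE's main transcript, the longest where several ranked equally. It was 8363 bases long in NDUFA9 and 11819 in NDUFS1. RPKM and GC content depend on this choice, whose effect was not tested. A count of 0 allows 3 reads, 1.54, 1.58, 6.13 and 5.38 units on average in cells (normoxia, hypoxia) and EVs (normoxia, hypoxia), which covers counting error only.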

Additional observations from a re-analysis of the deposited data

How the results depend on the processing

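In cells, 26 members were called lower (22.4% of all genes). They became 15 with equal totals (11.8%) and 10 with equal totals without the 10 highest genes (10.2%). By DESeq2 17 were lower (14.6%), and 0 in the fit over all 12 libraries (0.103% of all genes lower, members' median -0.30). Leaving out 1 library gave 20 to 25 lower (17.9% to 20.4% of all genes). The 20 came without normoxia cells replicate 3, and 0 were higher each time. In EVs, 5 were called lower (6.62% of all genes). They became 2 with a pseudocount of 0.5 (5.14%), 8 with a filter mean of 50 (15.6%) and 1 with no filter (2.80%). With TMM 8 were lower (8.65%), with equal totals 0 (0.674%) and with equal totals without the 10 highest genes 0 (1.59%). With the background removed 0 were lower, 0 of all 27904 genes passed and the members' median was -0.81. By edgeR 8 were lower (8.88%), by DESeq2 10 (10.7%), and in the fit over all 12 libraries 20 (18.3%). Leaving out 1 EV library gave 0 to 15 lower (0.0243% to 14.1% of all genes) and 0 to 1 higher (0% to 22.0%). The median member in EVs turned to 0.091 with equal totals. In EVs, 1 member was higher in the fit over all 12 libraries (NDUFA9), against 15.8% of all genes. For EVs minus cells, 3 were higher with equal totals without the 10 highest genes (52.4% of all genes). There, leaving out 1 library gave 39 to 41 lower (29.8% to 33.2%) and 1 to 2 higher (40.3% to 45.9%). For the difference of responses, limma's 0 lower (1.87% of all genes) became 1 with TMM (4.85%) and 5 with the background removed (7.12%). By edgeR 3 were lower (6.12%) and by DESeq2 4 (6.93%), with 1 higher by DESeq2 (2.13%). With 1 library left out, 0 to 9 were lower (0.138% to 13.3%) and 0 to 1 higher (0.00813% to 9.57%). The median of this difference over members turned to 0.32 with equal totals and 0.17 without the 10 highest genes. The cause of these shifts was not tested.

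Whether equal replicate numbers mark paired samples is not known. Deviations of same-numbered libraries correlated between -0.12 and 0.05 in 12 pairs. With 3 libraries per group, such correlations cannot decide whether samples were paired. With the replicate block, 26 members fell in cells (22.7% of all genes). Between the EV groups 7 fell (9.44%) and 1, NDUFA4L2, rose (9.95%). In EVs against cells 40 were lower (31.7%) and 1 higher (42.9%), and 0 differed in response. EV libraries held fewer reads and their replicates spread more, and which of these limits the calls was not tested. On simulated data, limma recovered 55% of 100 genes changed by 1 on the log2 scale in EVs (27820 genes) and 100% of 100 in cells (17276 genes). The changed genes had means of 100 or more, which 30 members reached in EVs, and no rise in background was simulated. These shares do not hold for members with lower values or smaller changes.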
